A study of Mus musculus with 5 samples.

Results

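Resting basal keratinocytes of mouse back skin were described here as the cells that carried the basal keratins but no detectable message for the alarm cytokine Tslp, the growth factor Epgn or the oxysterol enzyme Ch25h. The members were chosen by a rule on unique molecular identifiers (UMIs, the tags that count single mRNA molecules in droplet sequencing). A barcode was kept with 500 to 8000 genes and at most 10% mitochondrial UMIs. Of these, a cell had to have at least 100 UMIs of Krt14 and Krt5 together and under 50 of Krt1 and Krt10 per 10,000, under 2 per 10,000 of the upper follicle genes Krt79, Cst6 and Defb6, at most 1 UMI of the cycling genes Mki67, Top2a, Cenpf and Ube2c, and 0 UMIs of Tslp, Epgn and Ch25h and of the bulge genes Lhx2, Lgr5 and Kcnk2. The rule took 58 cells of 34041 kept cells. All values of these 17 genes, and every difference from another class of cells cut by them, are therefore descriptions and carry no test.

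The cells came from unsorted dorsal skin of female mice at postnatal day 46. The mutant libraries were from Lepr-Cre;mTmG;Smo+/- skin (2 libraries) and the control libraries from Lepr-Cre;mTmG skin (2 libraries; the protocol text writes this genotype with a bare Smo). Both genotypes carry Lepr-Cre, a Cre recombinase driven by the leptin receptor gene, and mTmG, a reporter that turns membrane tomato into membrane green fluorescent protein where Cre has acted; how the Smo allele was changed is not said in the labels. Since the protocol describes the libraries within each genotype as technical replicates, the p-values cover the spread among libraries, which may not be that among mice. A sorted library of green cells was not used. The kept cells numbered 8545 and 8818 in the mutant libraries and 8278 and 8400 in the control libraries, and the deposited matrices summed to between 147245343 and 171197845 UMIs.

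The basal layer is the deepest layer of the epidermis. Its cells rest on the basement membrane, to which they are tied by hemidesmosomes built from integrin alpha 6 beta 4, collagen XVII, dystonin and plectin, and they make the keratin pair Krt5 and Krt14 under the transcription factor p63 (Trp63). When they leave the membrane they turn off these genes and turn on the suprabasal pair Krt1 and Krt10. Tslp is an alarm cytokine released by stressed keratinocytes, and Epgn is a ligand of the Egf receptor.

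The last criterion decided the size of the group. In the 4 libraries 4885 cells had the basal keratins without the suprabasal pair, 3798 of them were not cycling, 3645 of those lacked upper follicle genes and 3063 of those lacked bulge genes. Only 58 of these 3063 had no UMI of Tslp, Epgn or Ch25h, while 90 had 1 UMI and 118 had 2. The remaining 3005 cells are called activated basal cells here. Cells with under 10 per 10,000 of Krt14 and Krt5 and under 50 of Krt1 and Krt10 (19628 cells) are called low-keratin cells. They also held Tslp, Epgn and Ch25h. At least 1 UMI of these was seen in 88.5 and 85.6% of them in the mutant libraries and 78.1 and 81.4% in the control libraries. Their medians were 3.16 and 2.81 per 10,000 in the mutant libraries and 2.50 and 2.68 in the control libraries. The activated basal cells had a median of 23.3 and 21.5 per 10,000 in the mutant libraries and 17.4 and 19.2 in the control libraries.

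A count of 0 was reached more often at low depth. Median depth was 5262 and 4753 UMIs per resting basal cell in the mutant libraries and 7530 and 5942 in the control libraries, against 14737 and 14228, and 15164 and 15354, per activated basal cell. Over all 4 libraries the median was 6475 UMIs in cells with 0 UMIs of the 3 genes, 8134 in cells with 1 and 9014 in cells with 2. The shallowest resting cell had 715 UMIs, 7 had under 1000 and the deepest had 13514. When every cell was first thinned to 2000 UMIs, the same criteria took 559 cells, of which 45 were among the 58. A wider group with under 5 per 10,000 of Tslp, Epgn and Ch25h in place of 0 UMIs, added after the data were seen, held 573 cells with a median of 9964 UMIs. The part of depth and of free RNA in who entered the group was not tested.

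The keratin threshold cut through a continuous range. The lowest members had 102, 105 and 106 UMIs of Krt14 and Krt5 per 10,000, and the nearest of the 26 cells that had 50 to 100 and met every other criterion had 93.6, 93.2 and 91.3. Of the 58 cells, 26 lay between 100 and 150 per 10,000, and the highest had 385. The median was 116 and 156 per 10,000 in the mutant libraries and 163 and 154 in the control libraries.

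**Figure D1:**
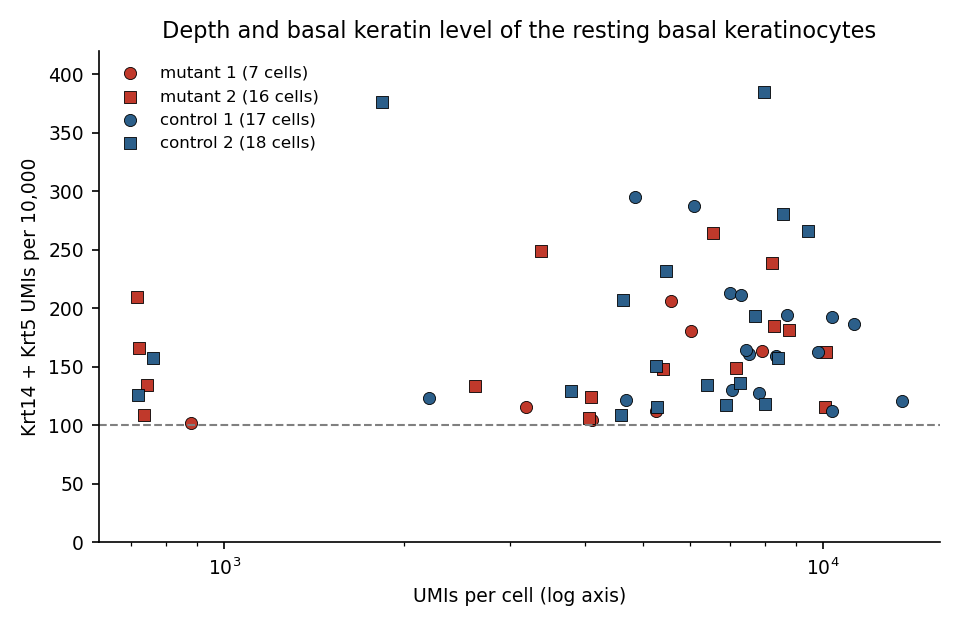
Each point is 1 of the 58 resting basal keratinocytes, by its UMIs on a log axis and its Krt14 plus Krt5 UMIs per 10,000, in mutant (red) and control (blue) libraries. The dashed line is the minimum of 100 set by the rule; depth runs between 715 and 13514 UMIs, and the 7 cells under 1000 UMIs come from mutant 1, mutant 2 and control 2.

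The basal label held for markers the rule did not use. Krt15, a keratin of basal and follicle progenitors, had a UMI in 56 of 58 cells, the hemidesmosome collagen Col17a1 in 53, the integrin Itga6 in 46, Trp63 in 36 and the integrin Itgb4 in 31. All 4 of Krt15, Trp63, Col17a1 and Itga6 were present in 33 cells, 3 in 14, 2 in 6 and 1 in 5. The 5 cells with a single one of them had a median of 742 UMIs, so that their identity rests on Krt14 and Krt5.

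Messages of other skin cells were low but present. The summed markers of fibroblasts, endothelium, lymphocytes, macrophages, melanocytes, Schwann cells and smooth muscle, without Epcam, Mfge8 and Notch3, reached a median of 7.60 and 6.45 UMIs per 10,000 in the resting cells of the mutant libraries and 5.31 and 5.12 in those of the control libraries, against 4.81 and 4.89, and 3.02 and 3.24, in the activated cells. Over 5 per 10,000 were seen in 33 of 58 cells. Of the suprabasal list 9 of 10 genes were detected, in 54 cells, at a median of 16.9 per 10,000 per cell, with Dsc1 at 0; the list holds Krt1 and Krt10, which the rule limited. Of the upper follicle list 7 of 8 genes were detected, in 54 cells, at a median of 19.1; it holds the stress keratin Krt17 and Ptgs2, and Krt79, at 0, was limited by the rule. Macrophage and Langerhans cell markers had 9 of 12 genes detected, in 49 cells, at a median of 4.19, with Lyz2, C1qa and Tyrobp at 0; Epcam, which epithelial cells also make, had 163 UMIs in this list and Cd74 and H2-Ab1 10 each. Schwann cell markers had 4 of 8 genes detected, in 19 cells, with Sox10 at 0, and endothelial markers 2 of 9 genes in the files, in 10 cells, with Cdh5 and Kdr at 0. Melanocyte markers were seen in 5 cells, with Pmel and Tyr at 0, mast cell markers in 1 cell and adipocyte markers in 2. The part of these cells or of their free RNA in the results was not tested. Fibroblast markers had 8 of 10 genes detected and a median of 1.90 per 10,000 per cell, with 83.6 in the highest cell, in control 1, and 10.8 in the next. T and innate lymphoid markers had 8 of 9 genes in the files detected, in 5 cells, with 12.7 per 10,000 in the highest. A doublet caller marked 2 of the 58 cells, the control 1 cell with 83.6 per 10,000 of fibroblast genes and 1 cell of mutant 1. Between 24 and 46 kept barcodes were shared by each pair of libraries, and 1 barcode was a resting cell in both mutant 2 and control 2.

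Basal keratins, a lipid carrier and metallothioneins were among the most abundant messages. Values are CPM, the summed UMIs of the resting cells of a library scaled to a total of 1000000; UMIs were read at the 3' end, so that no length correction applies. Krt14 stood at 10168 and 12898 CPM in the mutant libraries and 12404 and 14037 CPM in the control libraries. Krt5 stood at 5039 and 4336 CPM in the mutant and 4646 and 5304 CPM in the control libraries. Both keratins had similar values in all 4 libraries and were used by the rule. Apoe, a lipid carrier, had 14630 CPM in mutant 1 and 7729 in mutant 2, against 7222 and 9452 CPM in the control libraries. The metallothionein Mt1, a small cysteine-rich protein that binds zinc and copper, had 8165 and 6455 CPM in the mutant libraries and 6418 and 6596 CPM in the control libraries. Its neighbour Mt2 had 4310 and 4863 CPM in the mutant and 3120 and 4119 CPM in the control libraries. Apart from Apoe in mutant 1, each of these genes differed by less than 2-fold between any libraries.

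Most genes of adhesion to the basement membrane had at least 1 UMI. Of 25 genes in this list 23 had a UMI, all but Lamb1 and Fras1, and they summed to 42.2 and 34.7 UMIs per 10,000 in the mutant libraries and 34.8 and 34 in the control libraries. Col17a1 had 1244 and 1200 CPM in the mutant libraries and 1303 and 1360 CPM in the control libraries, a narrow range. Itga6 had 728 and 429 CPM in the mutant and 476 and 359 CPM in the control libraries. Dst, the dystonin gene, had 395 and 404 CPM in the mutant and 216 and 282 CPM in the control libraries. The laminin genes Lamb3 and Lama3 averaged 198 and 68.9 CPM, and the integrins Itgb1, Itga3 and Itgb4 averaged 233, 140 and 131 CPM.

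Among transcription factors of the basal layer Trp63 had 364 and 208 CPM in the mutant libraries and 223 and 204 CPM in the control libraries. Id3, an inhibitor of helix-loop-helix factors, averaged 513 CPM, Klf4, a factor of the epidermal barrier, 440 CPM, and Gata3 259 CPM. Of the 22 genes in this list 20 had a UMI, with Pitx1 and Grhl3 at 0. Krt15 had 2823 and 4691 CPM in the mutant libraries and 4847 and 4673 CPM in the control libraries, with mutant 1, the library with 7 cells, below the other three. The stress keratin Krt17 averaged 1576 CPM and Krt16 1311 CPM, with S100a8, S100a9 and Krt6b at 0 UMIs.

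Most Wnt and Notch genes were detected, at low levels. Of the Wnt ligands Wnt4 had 304 and 184 CPM in the mutant libraries and 134 and 107 CPM in the control libraries, and Wnt10a and Wnt3 averaged 92.3 and 38.1 CPM. In the Wnt list 18 of 24 genes had a UMI, and Wnt7a, Wnt10b and Rnf43 had none. The list summed to 10.9 and 7.59 UMIs per 10,000 in the mutant libraries and 6.70 and 7.38 in the control libraries. In the low-keratin cells it summed to a mean of 7.30. Among chemokines the epidermal T cell attractant Ccl27a (ENSMUSG00000073888, a symbol that the files give to more than one gene, so that its reads are uncertain) averaged 2263 CPM and Cxcl14, a chemokine of resting epithelia, 1230 CPM. Cxcl14 was even, at 1002 and 1360 CPM in the mutant libraries and 1362 and 1195 CPM in the control libraries. Of the Notch genes 13 of 16 had a UMI, led by Hes1, a target, at a mean of 109 CPM, with the ligands Jag1 and Jag2 at 66.7 and 58.5 CPM. Of 26 genes for antigen presentation and interferon response 23 had a UMI, with B2m at a mean of 1772 CPM and H2-K1 at 1318 CPM. This list summed to 77.4 and 59.4 UMIs per 10,000 in the mutant libraries and 70.7 and 64.2 in the control libraries. In the low-keratin cells it summed to a mean of 79.9.

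The Hedgehog pathway, in which Smo is the signal transducer, was near the limit of detection. In this list 9 of 15 genes had a UMI in the resting cells, and those with none included the ligands Shh, Ihh and Dhh, the factor Gli2 and the antagonist Hhip. Smo itself had 2 and 5 UMIs in the mutant libraries (60.7 and 61.2 CPM) and 5 and 3 UMIs in the control libraries (37.2 and 29.1 CPM). These counts are too low for a comparison, and whether the UMIs in the mutant libraries come from the changed allele cannot be told from them. The response genes Ptch1 and Gli1 had 1 and 2 UMIs in all. Lepr had 0 of 351842 UMIs, which allows up to 8.53 CPM over the 4 libraries, against a mean of 54.0 CPM in the low-keratin cells. The reporter tomato had a UMI in 52 of 58 cells, at 789 and 649 CPM in the mutant libraries and 625 and 525 CPM in the control libraries, and eGFP had 7 UMIs in 6 cells (a mean of 24.8 CPM against 217 CPM in the low-keratin cells).

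Detection at 1 depth showed how far the basal genes set these cells off. With each cell thinned to 2000 UMIs, 50 resting, 2982 activated, 1920 suprabasal and 18890 low-keratin cells remained. Krt15 had a UMI in 98.0% of the resting cells, 85.9% of the activated, 35.0% of the suprabasal and 9.95% of the low-keratin cells. For Trp63 the shares were 36.0, 23.6, 12.6 and 2.05%, and for Itga3 they were 28.0, 11.6, 1.20 and 1.09%, in the same order. Col17a1 was found in 92.0% of resting and 92.7% of activated cells. Cldn4, a claudin of upper layers, was found in 16% of resting, 61.0% of activated, 82.2% of suprabasal and 23.8% of low-keratin cells, and Ptgs2, the inducible prostaglandin synthase, in 36.0, 78.2, 55.2 and 32.3%. The shares of Cldn4 and Ptgs2 in resting cells were thus no higher than, or close to, those in low-keratin cells, and no expression is read from them. Klf4 also had like shares, at 56.0% of resting and 55.7% of low-keratin cells. The low-keratin cells still held some keratin message, with a Krt14 UMI in 35.7% of them. Which of them make these genes was not tested, so a like share does not show that the resting cells lack the message.

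**Figure D2:**
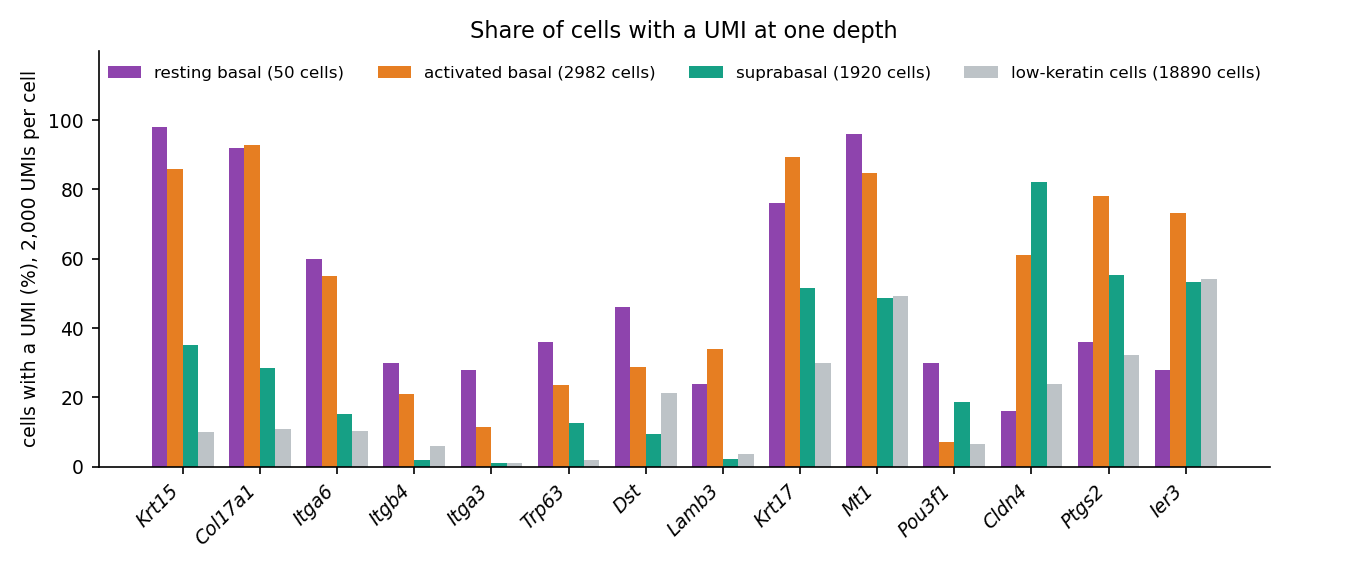
Bars give the percentage of cells with at least 1 UMI after thinning to 2,000 UMIs per cell, in resting basal, activated basal, suprabasal and low-keratin cells. Krt15, Col17a1 and Itga6 are found in most resting cells, at 98.0, 92.0 and 60.0%; Cldn4, Ptgs2 and Ier3 are found in 16, 36.0 and 28.0%.

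Against suprabasal cells (1948 cells with at least 50 UMIs of Krt1 and Krt10 per 10,000) the resting cells were higher in single genes such as Col17a1, Mt1 and Krt15. Of 1631 genes with at least 100 CPM in either class, 121 were at least 2-fold higher in the resting cells with no overlap of the 4 libraries (7.42%) and 339 were at least 2-fold lower (20.8%), with 20 CPM added to each mean. The genes named in these class comparisons were chosen after the values were seen, most of them for their size among genes with no overlap of the libraries. Col17a1 averaged 1277 CPM in resting and 174 CPM in suprabasal cells. Mt1 averaged 6908 against 654 CPM, Krt15 4258 against 399 CPM, Cxcl14 1230 against 138 CPM and S100a6, a calcium-binding protein, 2314 against 188 CPM. The prostaglandin transporter Slco2a1 averaged 223 against 12.3 CPM, and the matrix protein Smoc2 153 against 4.83 CPM. Lower in the resting cells were genes of the cornified layers. Krtdap averaged 160 CPM in resting and 10705 CPM in suprabasal cells, Sbsn 101 against 7290 CPM, Sprr1a 76.0 against 6339 CPM and the filaggrin-cleaving protease Asprv1 37.8 against 3014 CPM.

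Against activated basal cells the differences were of another kind. Of 1497 genes, 44 were at least 2-fold higher in the resting cells with no overlap (2.94%) and 175 at least 2-fold lower (11.7%). Pou3f1, a POU-domain transcription factor, had 304 and 147 CPM in the resting cells of the mutant libraries and 112 and 146 CPM in those of the control libraries, against 27.2 and 26.9, and 32.9 and 29.0 CPM, in the activated cells. Mt1 averaged 6908 against 2144 CPM, Zfp36l2, an mRNA decay factor, 282 against 65.2 CPM and Wnt4 182 against 57.1 CPM. Ptgs2 had 243 and 368 CPM in the resting cells of the mutant libraries and 454 and 282 CPM in those of the control libraries, against 3551 and 3271, and 3930 and 3668 CPM, in the activated cells. The chemokine Ccl20 averaged 34.3 against 704 CPM, Cldn4 130 against 1779 CPM, Serpinb2, a protease inhibitor, 2359 against 12151 CPM, Phlda1 421 against 2595 CPM and the damage-response gene Gadd45a 73.7 against 695 CPM. All 4 libraries of the resting cells lay on the same side of the 4 of the activated cells for each of these genes. Most of them were picked from genes with no such overlap, so this is a condition of the choice and not a result.

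Most of this second contrast was smaller against activated cells of lower depth. The resting cells had a median of 6474.5 UMIs, and 6 of them had over 10000. The 609 activated cells with at most 10000 UMIs had a median of 8088 UMIs, so depth was nearer but not matched. Against them, 4 of 1313 genes were at least 2-fold higher in the resting cells with no overlap (0.305%) and 7 were at least 2-fold lower (0.533%). Of the 44 genes, 43 kept the sign of the difference, 13 did not overlap and 3 were still past 2-fold; of the 175 genes, 163 kept the sign, 54 did not overlap and 7 were still past 2-fold. The 4 higher genes were Krtdap, Nr3c1, the glucocorticoid receptor, Pou3f1 and the transcription factor Bcl11b. Pou3f1 had 74.0 and 65.2 CPM in the shallow activated cells of the mutant libraries and 79.6 and 89.6 CPM in those of the control libraries, below all 4 resting values. Krtdap averaged 160 CPM in resting and 56.4 CPM in shallow activated cells and stood highest in control 2, at 350 CPM. The lower genes were Ccl20 (34.3 against 400 CPM), Ptgs2 (337 against 734 CPM), Ifi203, A130010J15Rik, Tpm1, Creb5 and Mdm2. Krt15 averaged 4258 CPM in resting and 4277 CPM in shallow activated cells, and Trp63 250 and 239 CPM. The 515 cells of the wider group outside the 58 had a mean of 4759 CPM of Mt1, 639 CPM of Ptgs2 and 427 CPM of Cldn4.

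**Figure D3:**
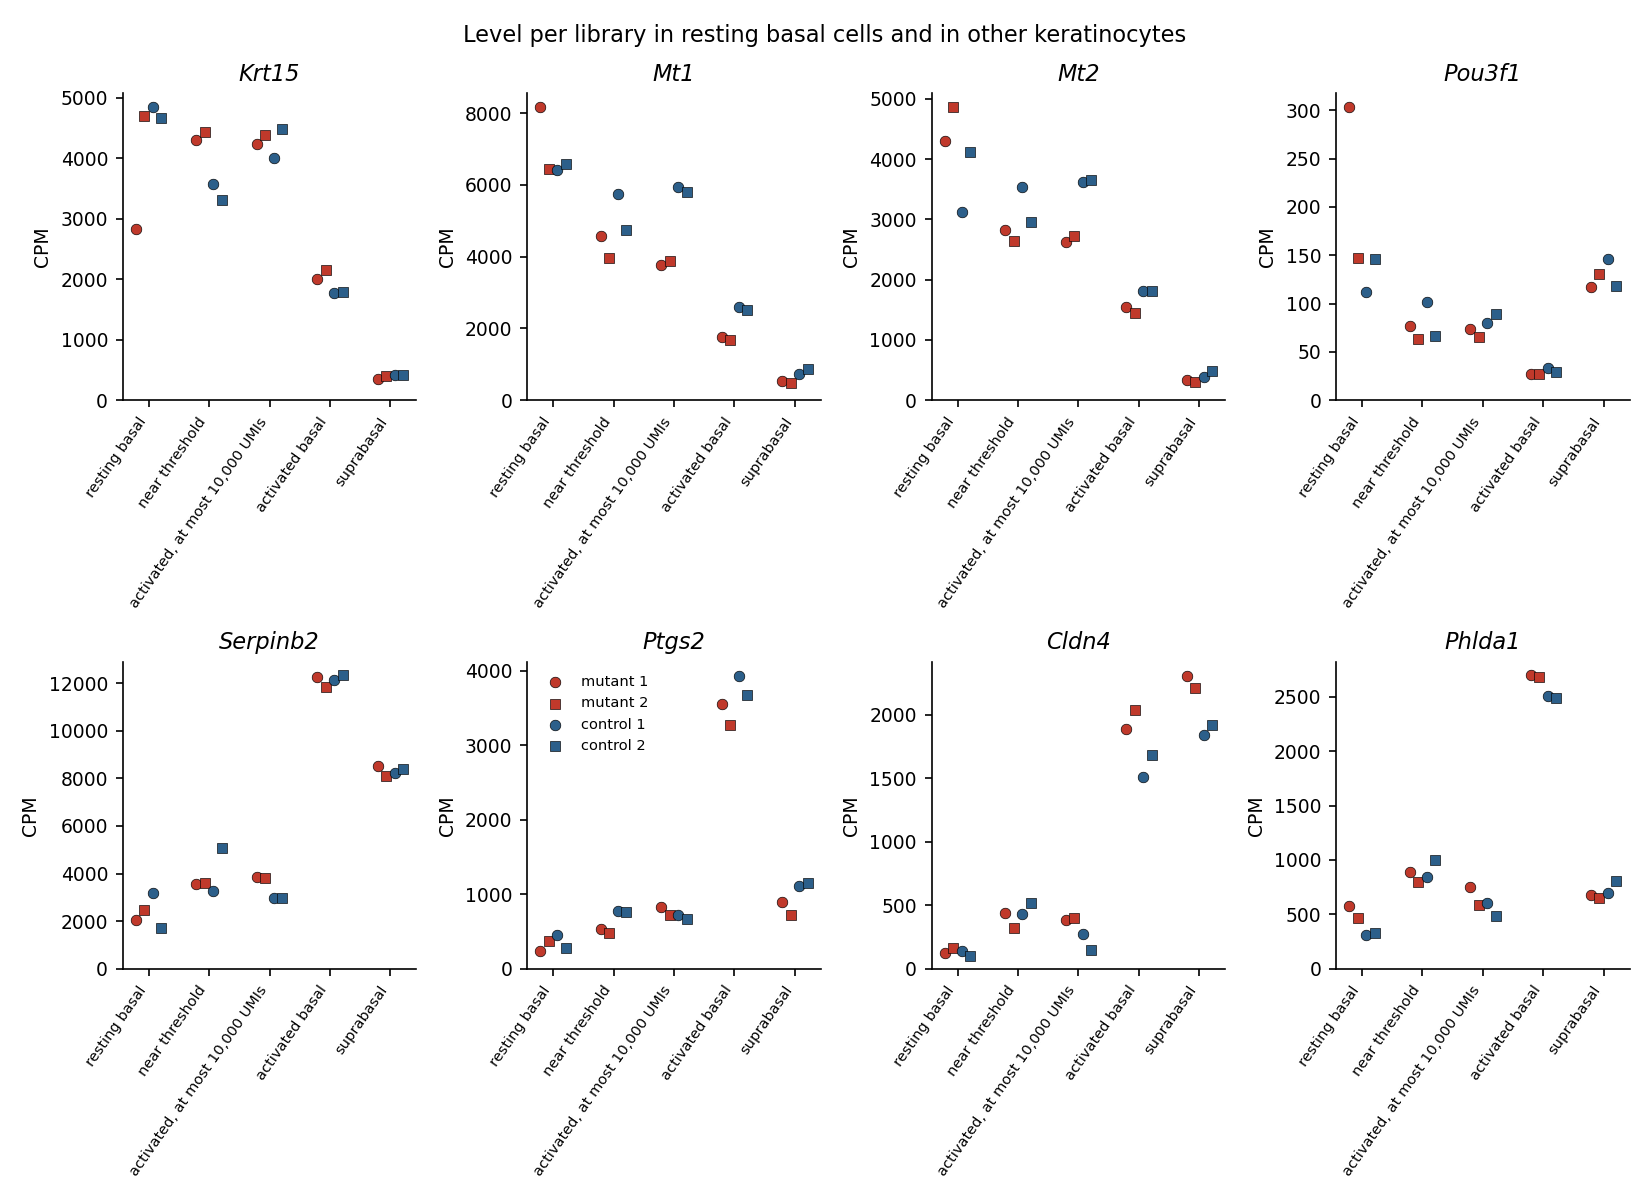
Each point is the CPM of the summed cells of a library, for mutant 1, mutant 2, control 1 and control 2, in resting basal cells, in the 515 cells with under 5 UMIs of Tslp, Epgn and Ch25h per 10,000 that are not members (near threshold), in the 609 activated cells of at most 10,000 UMIs, in all activated basal cells and in suprabasal cells. Krt15 is as high in shallow activated cells (mean 4277 CPM) as in resting cells (mean 4258 CPM), and Ptgs2 and Serpinb2 are several times higher in all activated cells than in either.

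Some messages differed widely among the resting cells, several of them through a few cells or 1 library. In the 38 cells with at least 5000 UMIs (4 and 8 in the mutant libraries, 14 and 12 in the control libraries), thinned to that depth, 1172 genes had a mean of at least 0.5 UMIs, and their median Fano factor (variance over mean, 1 for pure counting noise) was 1.27. The 10 highest were Mt1 (34.9), Apoe (31.5), Serpinb1a (31.0), Malat1, Hspa1a, Actb, S100a6, Serpinb2, Hspa1b and Hspb1 (16.6). These are means over the libraries with a UMI, which for Serpinb1a was mutant 1 alone. Single libraries also stood out for Hspa1a and Hspb1 (51.4 and 47.1 in mutant 2) and Actb (54.1 in mutant 1). The same held for S100a6 (55.7 in control 2) and Serpinb2 (52.8 in control 1). The places of Mt1 and Apoe rested on the 4 cells of mutant 1, where their Fano factors were 95.1 and 89.9, and 1 of these cells held 175 UMIs of Mt1 and 212 of Apoe before thinning. Without mutant 1, an alternative chosen after seeing the data, Mt1 stood at 14.8 and Apoe at 11.97, and the highest were the chaperone gene Hspa1a (26.3) and the nuclear RNA Malat1 (25.9). Mt1 ranged between 1 and 160 UMIs per cell with a median of 29.5, and Mt2 between 2 and 53 with a median of 18. Apoe ranged between 6 and 203, and the inducible chaperone Hspa1a between 0 and 63 with a median of 1. Krt14 ranged between 24 and 162 and Krt15 between 2 and 60. Serpinb1a was in the list through a single cell. Hspa1a and its near-identical copy Hspa1b, between which reads could be split, went together over the 38 cells (Spearman's rho 0.46, Pearson's r 0.93). By library rho was 0.51 in mutant 2, 0.62 in control 1 and 0.59 in control 2, but -0.39 in the 4 cells of mutant 1. Mt1 and Mt2 also went together (Spearman's rho 0.66, Pearson's r 0.58), with rho at 0.48 in the 8 cells of mutant 2, 0.55 in the 14 of control 1 and 0.71 in the 12 of control 2; the cells of a library share its preparation. For Krt14 and Krt5 rho was -0.12, and for Mt1 and Hspa1a it was -0.34. The latter was 0.63 in mutant 1, -0.45 in mutant 2, -0.38 in control 1 and -0.67 in control 2.

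Mt1 and Mt2 lie side by side on chromosome 8, and both are known to be induced by zinc through metal response elements near their start, which the factor Mtf1 binds. Their promoters are shown because these neighbours were abundant and went together among the cells. The windows cover 250 bases before the start and 50 after it, from RefSeq (GRCm38.p6), both on the plus strand, for Mt1 chr8:94178839-94179138 and for Mt2 chr8:94172368-94172667. Capitals mark matches on either strand to TGCACNC or TGCGCNC, the core letters of metal response elements.
Mt1: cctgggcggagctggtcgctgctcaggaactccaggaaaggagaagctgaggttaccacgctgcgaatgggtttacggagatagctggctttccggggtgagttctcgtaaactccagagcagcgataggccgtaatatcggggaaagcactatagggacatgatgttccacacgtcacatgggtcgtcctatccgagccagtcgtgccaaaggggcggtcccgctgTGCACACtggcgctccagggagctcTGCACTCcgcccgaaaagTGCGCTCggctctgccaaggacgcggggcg
Mt2: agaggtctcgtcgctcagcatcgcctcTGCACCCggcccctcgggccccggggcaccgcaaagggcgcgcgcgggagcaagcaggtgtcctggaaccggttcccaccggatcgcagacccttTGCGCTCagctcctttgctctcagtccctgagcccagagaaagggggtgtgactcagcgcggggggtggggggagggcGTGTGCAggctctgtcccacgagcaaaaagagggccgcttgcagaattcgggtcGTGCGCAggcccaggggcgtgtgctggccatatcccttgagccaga
The Mt1 window held 2 matches of TGCACNC and 1 of TGCGCNC, and the Mt2 window 2 of each. Among all 32851 promoter windows, the share with TGCACNC was 12.6%, that with TGCGCNC 15.4%, that with at least 3 matches of either 1.97% and that with at least 4 matches 0.517%. A match describes letters and not binding.

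The resting cells were 0.0819% and 0.181% of kept cells in the mutant libraries (exact 95% binomial intervals 0.0329 to 0.169% and 0.104 to 0.295%) and 0.205% and 0.214% in the control libraries (0.120 to 0.329% and 0.127 to 0.339%). The intervals cover counting error only. The mutant mean was 0.132 ± 0.0704% and the control mean 0.210 ± 0.00631% (SD, n = 2 each), a difference of -0.0781 percentage points. Both mutant libraries lay below both control libraries, which gives p = 0.33 in a two-sided exact permutation test, the smallest that 2 against 2 libraries allow. Cells with the basal keratins were also fewer, at 10.6 and 11.3% of kept cells in the mutant libraries and 17.9 and 17.8% in the control libraries. As a share of these, the resting cells were 0.773 and 1.60% in the mutant and 1.14 and 1.20% in the control libraries, and the groups overlapped (exact permutation p = 1). The wider group made up 0.995 and 1.37% of kept cells in the mutant libraries and 2.38 and 2.02% in the control libraries. In unsorted skin a lower share of a class can come from more cells of another.

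No gene was called between mutant and control resting cells. The UMIs of the members were summed per library, to 32946 and 81641 in the mutant and 134316 and 102939 in the control libraries, so that 1 UMI stood for 30.4 and 12.2 CPM in the mutant and 7.45 and 9.71 CPM in the control libraries. Of 1235 genes that passed the filter on low counts, 0 (0%) reached an adjusted p under 0.05 (edgeR quasi-likelihood test, Benjamini-Hochberg) with a log2 fold change of at least 1, and the smallest adjusted p was 0.798. At an unadjusted p under 0.05 there were 67 genes (5.43%), 32 higher and 35 lower in the mutant; DESeq2 also called 0 and had 11 at an unadjusted p under 0.05. Without mutant 1 there were 13 calls, and without mutant 2 there was 1. The median standard error was 0.41 on the log2 scale. In counts simulated for this comparison, 47 of 50 genes raised (94.0%) and 27 of 37 genes lowered (73.0%) by 2 on the log2 scale were called. These shares are among changed genes that passed the filter. The counts were drawn per library with the same fixed spread for every gene. Single cells that hold most UMIs of a gene were not simulated, so the shares do not give the power in the real sums.

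Of the 19 gene lists, 109 members were tested and 0 were called in either direction. The median log2 fold change of basement membrane adhesion was 0.18 over 10 tested members, of basal transcription factors 0.39 over 11, of basal progenitor markers 0.046 over 10, of early differentiation -0.22 over 10 and of immediate early and heat shock genes 0.46 over 21, beside 0.019 over all 1235 genes. In the wider group 4 of these medians had the opposite sign, at -0.25 over 19 basal transcription factors, -0.14 over 19 basal progenitor markers, 0.11 over 20 early differentiation genes and -0.30 over 22 immediate early and heat shock genes; that of adhesion was 0.092 over 22. Junction genes stood at 0.31 over 10, antigen presentation and interferon genes at 0.077 over 8, and metallothionein and redox genes at -0.17 over 6, and these 3 medians also had the opposite sign in the wider group, at -0.029, -0.13 and 0.0061. No Hedgehog gene passed the filter. The other lists had at most 5 tested members.

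Of the 109 list genes tested, 11 had an unadjusted p under 0.05 (edgeR), beside 67 of all 1235 genes tested (5.43%). Their adjusted p lay between 0.798 and 0.859, and none is a call. The lists were chosen with earlier results of these data known, so the 2 shares are not compared. The immediate early factor Jun had 1765 and 1692 TMM-scaled CPM in the mutant and 952 and 729 in the control libraries (log2 fold change 1.03, SE 0.22, edgeR adjusted p = 0.798). Id1, a target of Bmp signals, had 186 and 268 in the mutant and 66.9 and 67.2 in the control libraries, from 6 and 22 UMIs against 9 and 7 (1.81, SE 0.43). For both genes the genotypes did not overlap, but both were picked by their p. How many of all tested genes also lacked overlap was not counted. Few cells held most of the Jun UMIs: 1 cell of mutant 2 had 80 of 139, 2 cells of mutant 1 had 28 and 22 of 57, and 1 cell of control 1 had 56 of 128, while the highest cell of control 2 had 10 of 76. Nr3c1 had 217 and 134 in the mutant and 44.6 and 48.0 in the control libraries, and Tgfb1 186 and 110 in the mutant and 44.6 and 19.2 in the control libraries, from 2 to 11 UMIs a library. Fgfbp1, a carrier of fibroblast growth factors, had 155 and 511 in the mutant and 164 and 115 in the control libraries, so that the genotypes overlapped. Dmkn and the interferon-induced Ifitm3 had negative values, of -0.62 and -0.49. The directions of Jun, Id1, Klf4, Ier3, Phlda1 and Dmkn were the opposite in the wider group, where they were -0.44, -0.52, -0.061, -0.46, -0.047 and 0.11.

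**Figure D4:**
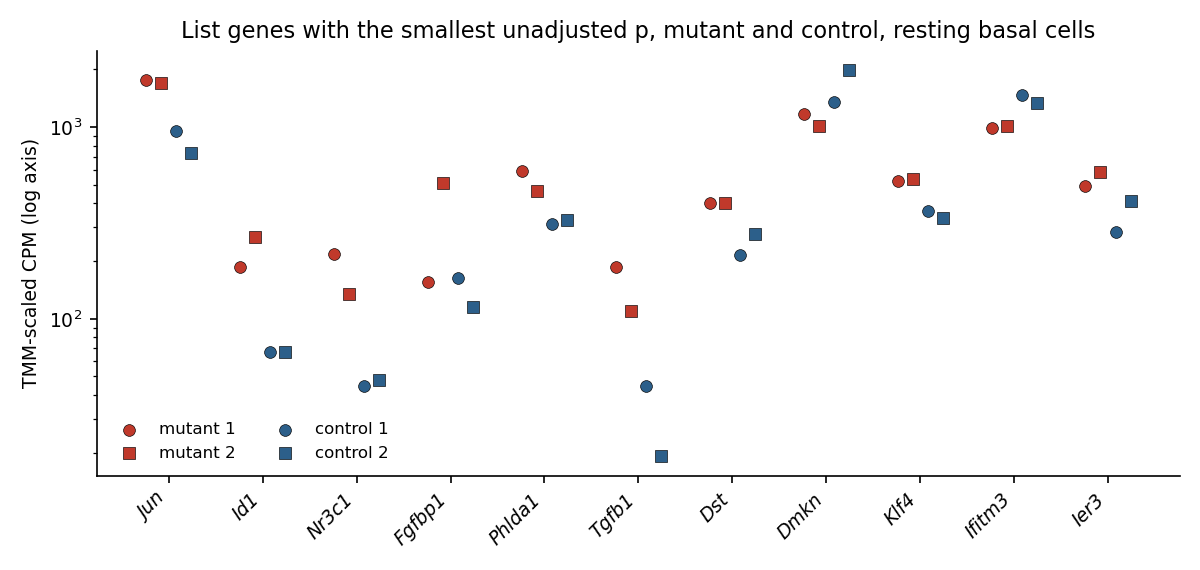
Points give TMM-scaled CPM on a log axis for mutant 1, mutant 2, control 1 and control 2 in the resting basal cells, for the 11 list genes with an unadjusted p under 0.05. None of these genes was called; the smallest adjusted p is 0.798.

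No marker of the cells was called between the genotypes. Krt15 had a log2 fold change of -0.30 (SE 0.21, edgeR adjusted p = 0.983), Col17a1 of -0.11 (SE 0.19), Itga6 of 0.38 (SE 0.33) and Trp63 of 0.31 (SE 0.37). Mt1 stood at 0.18 (SE 0.15) and Mt2 at 0.37 (SE 0.17). Krt17 stood at 0.054 (SE 0.24) and Ptgs2 at -0.19 (SE 0.35). Differences above their errors also went without a call at this depth: Mt2 had an adjusted p of 0.859, and Jun, at 1.03 with an SE of 0.22, one of 0.798 (edgeR). The lack of a call therefore does not show that these genes were equal.

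The wider group of 573 cells gave few calls. Of 8159 genes tested, 7 were called (0.0858%; edgeR quasi-likelihood test, Benjamini-Hochberg), 4 higher and 3 lower in the mutant, and 844 (10.3%) had an unadjusted p under 0.05. Eva1a, a regulator of autophagy, had 118 and 93.4 TMM-scaled CPM in the mutant and 32.2 and 35.4 in the control libraries (log2 fold change 1.63, SE 0.18, adjusted p = 0.0153). Hs3st1, a heparan sulfate sulfotransferase, had 57.9 and 65.2 in the mutant and 141 and 278 in the control libraries (-1.75, SE 0.28, adjusted p = 0.043). Gt(ROSA)26Sor, the locus that carries the mTmG reporter, had 4.63 and 3.22 in the mutant and 25.5 and 19.5 in the control libraries (-2.55, SE 0.41). Rab6b (3.32), Prss22 (3.72) and Calca (5.70) were higher and Hist1h2al (-5.13) lower. None of the 7 passed the filter in the 58 cells, where Eva1a had 0 and 7 UMIs in the mutant and 2 and 2 in the control libraries. All 7 had the same direction in the activated basal cells, where 163 of 12683 genes were called (1.29%) and where Eva1a stood at 1.05 and Hs3st1 at -1.19. The activated cells include the 515 cells of the wider group outside the 58. The 2 sets thus share cells, and the shared direction is no separate evidence. Of the 20 Calca UMIs in the wider group of mutant 1, 19 came from a single resting cell.

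Whether the genotype effect in resting cells differed from that in other keratinocytes was tested as an interaction. Against suprabasal cells 4 of 10199 genes were called (0.0392%; edgeR quasi-likelihood test with library as a block), and 285 (2.79%) had an unadjusted p under 0.05. Against activated cells 1 of 10903 was called (0.00917%), and 265 (2.43%) had an unadjusted p under 0.05. Each of these calls rested largely on 1 cell. The protease inhibitor Serpinb1a, called in both, had 47 and 1 UMIs in the resting cells of the mutant and 0 and 0 in those of the control libraries, and all 47 were in 1 cell of mutant 1. The same cell held 12 of the 15 UMIs of Rgs1, a regulator of G-protein signals in lymphocytes, in mutant 1, and all 19 of Calca, and the doublet caller had marked it. Parp1, a DNA repair enzyme, had 0 and 1 UMIs in the mutant and 4 and 35 in the control libraries, 30 of them in 1 cell of control 2. The fibroblast collagen Col1a1 had 0 and 4 UMIs in the mutant and 37 and 3 in the control libraries, 34 of them in the other marked cell. With the marked cells left out, 0 genes were called in either interaction, while Parp1, whose highest cell was not marked, stood at -4.69 (adjusted p = 0.135), against -4.75 with them. Against suprabasal cells 1 gene was called without mutant 1 and 2 without control 1, and against activated cells 0 without mutant 1, 5 without mutant 2 and 2 without control 1.

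**Figure D5:**
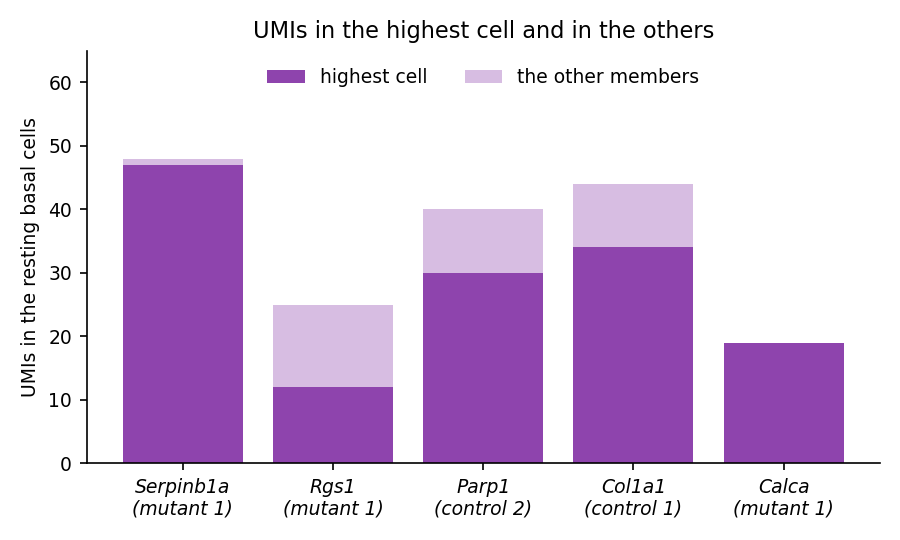
Bars give the UMIs of 5 genes over the 58 resting basal cells, split into the highest cell (dark, with its library named) and the other members (light). For Serpinb1a 47 of 48 UMIs, for Calca 19 of 19, for Parp1 30 of 40, for Col1a1 34 of 44 and for Rgs1 12 of 25 lie in the highest cell.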

How the data were processed

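Unsorted dorsal skin cells were captured with 10x Genomics 3' v3 chemistry, per the labels' protocols. Each deposited matrix gives UMI counts, not normalized, for every gene in every barcode, and was written by Cell Ranger 3.1.0 per the file headers; builds mm10 and GRCm38, Cell Ranger 2.1.1, Seurat 3.2.2 and Scanpy 1.6.0 stand in the submitters' processing notes, and which step each served is not given in the sources used here. Barcodes with 500 to 8000 genes and at most 10% mitochondrial UMIs were kept, and cells were classed by the rule on UMIs. The members and the gene lists were chosen with earlier results of these data known.

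Counts of the members were summed per library and tested with edgeR 4.0.16 (TMM, filterByExpr, glmQLFit and glmQLFTest; R 4.3.3), with Benjamini-Hochberg adjustment over all 1235 genes tested and a call at an adjusted p under 0.05 and a log2 fold change of at least 1. The 17 genes of the rule stayed in the library sizes and out of the test. Interactions of genotype and class used sums per library and class with library as a block. DESeq2 1.42.0 was an alternative. For shares an exact permutation test (two-sided) ran over libraries. The tests were checked on simulated counts. Thinning drew UMIs without replacement to 2000 or 5000 per cell, and shallower cells were left out. Doublets were called with scrublet in scanpy 1.11.5 at a score of at least 0.25 in every library, since the automatic limit marked 0 barcodes in control 1; they were left out only as an alternative. Named genes were the highest tested members of each list by CPM, the called genes of the interactions, the 10 genes of highest Fano factor, the genes of the rule and the reporters; genes named in class comparisons and the list genes by unadjusted p were chosen after their values were seen. Same-numbered libraries of the genotypes did not deviate together (r = 0.028 over 1238 genes). Gene coordinates were not needed beyond the promoter table. Intervals cover counting error only.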

Additional observations from a re-analysis of the deposited data

Results flagged for a closer look

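For 4 genes the mutant minus control difference in resting basal cells differed from that in another class of keratinocytes, by the edgeR test of the interaction itself. Against suprabasal cells the differences of the log2 effects were 14.3 for Serpinb1a (adjusted p = 6.44e-06), 3.43 for Rgs1 (0.0153), -4.75 for Parp1 (0.0153) and -3.39 for Col1a1 (0.0126). Against activated cells the difference was 14.01 for Serpinb1a (adjusted p = 1.85e-09). The fitted size for Serpinb1a depends on the prior count, since both control libraries had 0 UMIs in resting cells. The highest cell held 97.9% of the Serpinb1a UMIs of all members, 48.0% of those of Rgs1, 75% of those of Parp1 and 77.3% of those of Col1a1. Within mutant 1 the highest cell held 12 of the 15 Rgs1 UMIs. The cell with Serpinb1a and Rgs1 had 7905 UMIs and 21.5 per 10,000 of other cell types' markers, and the doublet caller had marked it. The cell with Col1a1, also marked, had 13514 UMIs and 83.6 per 10,000. The cell with Parp1, which was not marked, had 8401 UMIs and 4.76 per 10,000.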

How the results depend on the processing

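The count of genes called between genotypes was 0 with RLE factors, DESeq2, a fold minimum of 0.5 and doublets left out, and in the thinned, strict keratin and strict mitochondrial sets. It was 3 with no filter on low counts (Parp1, Calca and Serpinb1a), 2 with cells carrying other cell types' markers left out (Apoc1 and Krt16), 7 in the wider group and between 0 and 13 when a library was left out, with 13 without mutant 1 and 1, Serpinb1a, without mutant 2. Without mutant 1, Id1 (1.95) and Fgfbp1 (1.81) were among the calls. With a replicate block 0 genes were called, and the numbers share only a label. The interaction count against suprabasal cells was 0 with doublets left out, 1 with cells thinned to 5000 UMIs and between 1 and 6 when a library was left out, with 1 without mutant 1 and 2 without control 1. Against activated cells it was 0 with doublets left out and between 0 and 5 when a library was left out, with 0 without mutant 1, 5 without mutant 2 and 2 without control 1. In the wider group the log2 fold change was -0.061 for Klf4, -0.52 for Id1, 0.11 for Dmkn, -0.44 for Jun, -0.46 for Ier3, -0.047 for Phlda1 and 0.37 for Krt15 (adjusted p = 0.0319, under the fold minimum). With at least 200 UMIs of Krt14 and Krt5 per 10,000 it was -0.53 for Jun and 0.15 for Krt15, without cells carrying other markers -0.28 for Jun, and for Trp63 it lay between -0.073, without mutant 1, and 0.755, without mutant 2. Where fewer cells or libraries were left, the cause of a change was not tested. The lower share of resting cells among kept cells in the mutant libraries kept its direction under every alternative run for it, between -0.128 and -0.0284 points when a library was left out; taken over cells with the basal keratins, the mean was 1.19% in mutant and 1.17% in control libraries. The depth of the 7 cells of mutant 1, with 32946 UMIs in all, limits the comparison of genotypes in the 58 cells.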
